A study of Mus musculus with 12 samples.

Results

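*Srebf1* and 9 genes of fatty acid synthesis were followed in sciatic nerves of *Mtmr2* KO mice, with and without niacin, and of WT control mice. The members were *Srebf1*, *Mlxipl*, *Acly*, *Acaca*, *Fasn*, *Elovl6*, *Scd1*, *Scd2*, *Me1* and *Thrsp*. They were chosen by symbol for their place in the pathway, with earlier results of these data known. They are 10 of the 43432 genes in the count table, each matched 1 Ensembl gene, and all 10 passed the filter on low counts that left 17257 genes for testing. RNA of whole sciatic nerve was sequenced from 12 mice at the age of 1 month, with 1 library per mouse, 4 libraries per group, and 3 males and 1 female in each group. WT control mice and *Mtmr2* KO mice received no niacin. The paper describes the *Mtmr2* KO mice set against the niacin group as vehicle treated. The third group, *Mtmr2* KO niacin, carried the same KO allele and was given niacin, 120 mg/kg injected intraperitoneally on days 10 to 21, followed by gavage with Niacin-SR, a coated slow-release form, up to day 30. The KO is constitutive, in every cell of the mouse, on a 129/SvPas background. *Mtmr2* encodes a phosphatase of phosphoinositides, and its loss in Schwann cells produces redundant folds of myelin.

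Fatty acid synthesis turns citrate into palmitate in the cytosol and then lengthens and desaturates it. In nerve the pathway serves Schwann cells, which make myelin lipids, and adipocytes of the epineurium, the outer sheath. SREBP-1, the protein of *Srebf1*, is a membrane-bound factor that is cleaved and then switches on most enzymes of the pathway, while ChREBP, the protein of *Mlxipl*, does so in response to sugar. ACLY releases acetyl-CoA from citrate and malic enzyme, from *Me1*, supplies NADPH. Acetyl-CoA carboxylase, from *Acaca*, makes malonyl-CoA, and fatty acid synthase, from *Fasn*, joins these units into palmitate. ELOVL6 lengthens palmitate and the stearoyl-CoA desaturases SCD1 and SCD2 place a double bond into it. THRSP is a small protein of lipogenic tissues that accompanies the pathway.

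SREBP-1 acts at promoters together with the factors NF-Y and Sp1, so the promoter windows of the members were searched for 4 motifs on both strands: TCACNCNAC, the core of the sterol regulatory element; CCAAT, the NF-Y box; GGGCGG, the GC box bound by Sp1; and CACGTG, the E-box. RefSeq windows of 300 bases, 250 before and 50 after the start (GRCm38.p6), were given for 8 of the 10 members and 12 starts. *Scd1* and *Scd2* had none. Below are the 150 bases before the start of 5 windows, 5′ to 3′ on the strand of the gene, with matches in capitals. The first pair is shown because *Srebf1* has several starts, the next pair because both carry NF-Y boxes at like distances, and the last because it alone held the sterol element core. Gene counts do not separate reads from different starts.
Srebf1, start at 60210471, chr11:60210472-60210621, minus strand: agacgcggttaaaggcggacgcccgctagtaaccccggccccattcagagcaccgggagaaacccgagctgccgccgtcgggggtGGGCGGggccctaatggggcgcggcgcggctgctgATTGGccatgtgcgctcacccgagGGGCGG
Srebf1, start at 60220627, chr11:60220628-60220777, minus strand: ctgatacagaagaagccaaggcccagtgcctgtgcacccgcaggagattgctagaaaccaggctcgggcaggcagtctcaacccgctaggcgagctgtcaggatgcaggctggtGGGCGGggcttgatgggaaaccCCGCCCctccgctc
Fasn, start at 120824547, chr11:120824548-120824697, minus strand: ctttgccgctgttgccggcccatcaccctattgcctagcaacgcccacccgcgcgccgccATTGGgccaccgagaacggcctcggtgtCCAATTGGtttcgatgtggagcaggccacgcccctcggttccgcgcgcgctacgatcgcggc
Thrsp, start at 97417550, chr7:97417551-97417700, minus strand: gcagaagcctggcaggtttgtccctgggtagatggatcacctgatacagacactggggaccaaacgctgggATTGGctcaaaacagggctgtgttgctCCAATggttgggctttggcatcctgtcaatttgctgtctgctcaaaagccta
Mlxipl, start at 135106891, chr5:135106741-135106890, plus strand: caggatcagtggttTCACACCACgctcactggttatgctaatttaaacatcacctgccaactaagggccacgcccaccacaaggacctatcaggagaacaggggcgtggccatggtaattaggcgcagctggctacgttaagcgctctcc

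The NF-Y box was the most widespread of the motifs among the members, in 7 of 12 windows and 6 of 8 genes, against 37.4% of all 32851 windows in the table. The *Fasn* window held 3, beginning 90, 62 and 59 bases before the start, of which the last 2 overlap on opposite strands, and the *Thrsp* window held 2, at 79 and 52 bases. The GC box stood in 5 of 12 windows, against 35.7% of all, with 4 matches in *Acly*, 4 at 1 start of *Me1* and 3 and 2 at 2 of the *Srebf1* starts. The sterol element core was in 1 window (2.70% of all windows) and the E-box in 1, the other start of *Mlxipl* (7.15% of all). The windows of *Acaca* and *Elovl6* held none of the 4 motifs. That of *Acaca* begins at a start inside the gene, at 84195438 of a gene that spans 84129672 to 84401651 on chromosome 11, so the outer start was not examined. A match is a run of letters and was not tested for binding.

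**Figure D1:**
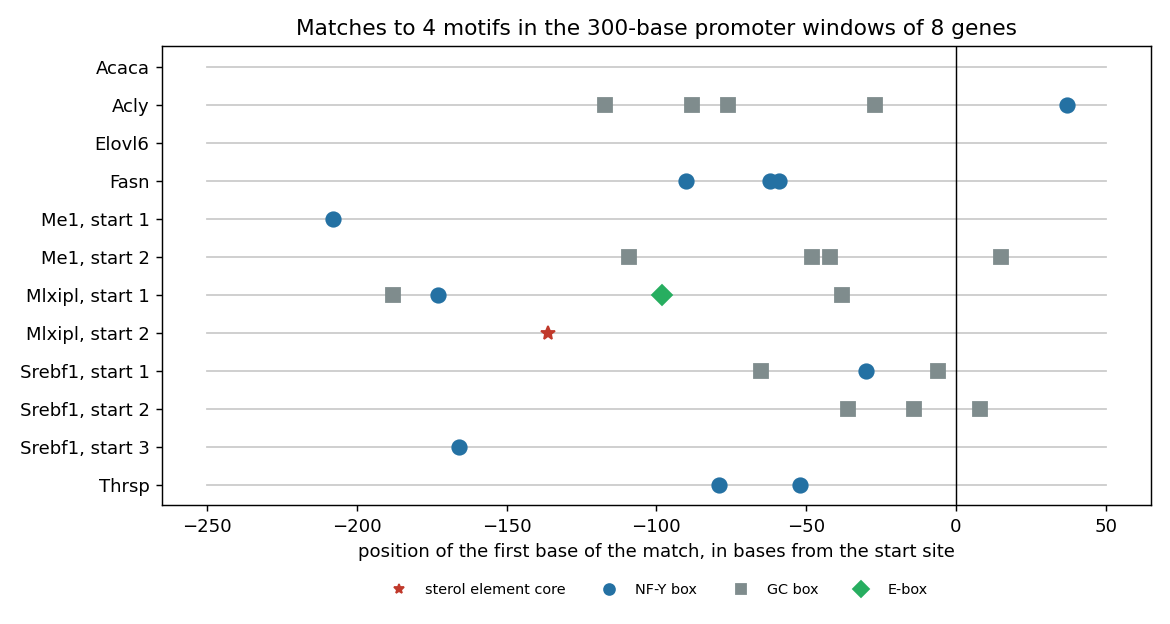
Positions of matches to the 4 motifs in the promoter windows of 8 members, in bases from the start site, with 1 line per window and 1 symbol per motif. NF-Y boxes of *Fasn* and *Thrsp* lie between 90 and 52 bases before the start, and the lines of *Acaca* and *Elovl6* are empty.

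Libraries held 20763951 to 33191106 counted reads, with all niacin libraries (at most 22935378) below all WT control libraries (at least 26653828). *Mtmr2* itself was at 128 to 161 CPM (each count scaled to the library total with TMM factors) in WT control nerves and at 69.5 to 84.7 in 3 *Mtmr2* KO libraries, but at 143 in the library labelled *Mtmr2* KO 4503, inside the WT control range. The niacin libraries had 66.8 to 73.5. Niacin libraries 4506 and 4507 carried skeletal muscle RNA, with 2398 and 2299 CPM summed over 5 muscle markers against 8.27 to 67.2 elsewhere. Library 4502 had the lowest median correlation with libraries of its own group (r = 0.95 across genes). The comparisons are also given below without 4503, without 4502 and 4503, and without 4506 and 4507. Counts were of whole nerve, so fewer cells of a type and less RNA per cell cannot be told apart.

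In WT control nerves the desaturases were the most abundant members per length of exon. *Scd1* had 934 ± 375 CPM per kilobase of exon and *Scd2* had 786 ± 83.7 (SD, n = 4), with overlapping ranges. *Fasn* followed at 167 ± 94.9, clear of *Scd2*. *Acly* (89.1 ± 34.6), *Thrsp* (87.7 ± 44.5), *Elovl6* (82.8 ± 11.6) and *Me1* (76.3 ± 33.4) formed a group whose neighbours overlapped, as *Fasn* and *Acly* did. The regulator *Srebf1* stood below these at 32.5 ± 5.28, overlapping *Acaca* at 23.4 ± 9.49. *Mlxipl* was lowest at 4.53 ± 1.07, below every WT control value of *Acaca*. These levels assume the exons of the whole gene and are a description without a test.

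The members varied widely among WT control mice. The SD of log2 CPM over the 4 WT control libraries was 0.86 for *Fasn*, 0.69 for *Thrsp* and 0.61 for *Acaca*, against a median of 0.16 over all genes tested. *Scd2* (0.15), *Elovl6* (0.20) and *Srebf1* (0.23) were the steadiest members. The libraries took a like order for most enzymes. In 4498, the WT control library with high *Xist*, *Fasn* was at 3169.9 CPM, and in 4500 at 798 CPM, a 3.97-fold range within WT control. *Xist* was also high in *Mtmr2* KO library 4502 and niacin library 4506, where *Fasn* was at 201 and 1352 CPM. In *Mtmr2* KO the spread was wider for 8 members, up to 1.59 for *Thrsp*, 1.04 for *Fasn* and 0.99 for *Mlxipl*, as it was for the median gene at 0.40. It was narrower for *Acaca* (0.50) and *Me1* (0.49 against 0.59 in WT control).

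The first comparison asked how the pathway stood in *Mtmr2* KO nerve. All 10 members had a lower mean in *Mtmr2* KO than in WT control, by a median of -1.002 on the log2 scale, against a median of 0.03 over all genes tested. None passed the threshold of an adjusted p under 0.05 in edgeR's quasi-likelihood test, where 0.267% of genes did. At an unadjusted p under 0.05 there were 8 of 10, against 17.2% of genes, all lower in *Mtmr2* KO. All 4 *Mtmr2* KO libraries lay below all 4 WT control libraries for *Srebf1*, *Mlxipl*, *Scd1* and *Thrsp*, 4 of 10, against 9.32% of genes that did not overlap. DESeq2 on the same 12 libraries called 4 members lower (*Srebf1*, *Acaca*, *Scd1* and *Me1*), beside 3.71% of genes. The calls turned on the tool, the filter and the libraries kept. With no filter except 1 count in total edgeR called 4 members lower, beside 1.01% of genes, and without 4501 it called 3, beside 2.6%. The lower means held for each of the 10 members with any single library left out, with the other tools and filters run and with either covariate, but not for *Scd2* when 4502 and 4503 were both left out. Without 4503 alone, the library with *Mtmr2* in the WT control range, the median was -0.84 and no member was called.

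*Srebf1*, the sterol-regulated factor, read 194, 220.1, 166 and 154 CPM in WT control libraries 4497 to 4500. In *Mtmr2* KO libraries 4501 to 4504 it read 132, 75.6, 105 and 114 CPM. The groups did not overlap, and library 4502 was lowest. The fold was 0.582 (log2 fold change -0.78 ± 0.19 SE, edgeR adjusted p = 0.084), and DESeq2 gave an adjusted p of 0.00753. Without libraries 4502 and 4503 the log2 fold change was -0.57 (edgeR adjusted p = 0.277). The exons of *Srebf1* overlap *Rai1* on the opposite strand over 109 bases, and the strand setting of the counting is unknown.

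*Mlxipl*, the sugar-responsive factor, read 23.4, 33.4, 24.0 and 19.5 CPM in WT control and 14.9, 8.03, 9.87 and 2.89 CPM in *Mtmr2* KO. The groups were separate and 4504 was lowest. The log2 fold change was -1.48 ± 0.47 (edgeR adjusted p = 0.150). Its values are set beside the white adipocyte markers below.

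The 2 genes that supply acetyl-CoA and NADPH behaved alike. *Acly* read 477, 725, 366 and 314 CPM in WT control and 415, 108, 148 and 270.2 CPM in *Mtmr2* KO. *Me1* read 289.9, 475, 226 and 184 CPM in WT control and 205, 134, 90.2 and 156 CPM in *Mtmr2* KO. For both, 4501 reached into the WT control range and 4502 and 4503 held the lowest values. The log2 fold changes were -0.999 ± 0.38 and -1.01 ± 0.34 (edgeR adjusted p = 0.201 and 0.167). Of the 50-base words in *Me1* transcripts, 28.3% also occur in other annotated genes, most often in *Gm7049*. Its counts are therefore uncertain, to an extent that was not measured.

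*Acaca*, which makes the malonyl-CoA unit, read 446, 601, 325 and 225 CPM in WT control against 304, 144, 151 and 219 CPM in *Mtmr2* KO. The groups overlapped, and the log2 fold change was -0.96 ± 0.31 (edgeR adjusted p = 0.150). For this gene 30.4% of 50-base words occur in other annotated genes, most often in *Gm5182*, with the same uncertainty. *Fasn*, the synthase itself, read 2087, 3169.9, 1270.2 and 798 CPM in WT control and 1128, 201, 378 and 549.7 CPM in *Mtmr2* KO. Only 4501 exceeded the lowest WT control library. The log2 fold change was -1.70 ± 0.53 (edgeR adjusted p = 0.146), a fold of 0.308.

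*Elovl6*, which lengthens palmitate, read 637, 519, 513 and 461 CPM in WT control. In *Mtmr2* KO it read 575 and 471 CPM in 4501 and 4504, inside that range, and 193 and 231 CPM in 4502 and 4503. The log2 fold change was -0.53 ± 0.30 (edgeR adjusted p = 0.383), and without these 2 libraries it was -0.021. The lower mean rested on 4502 and 4503. *Thrsp*, the small lipogenic protein, read 193, 328, 138 and 108 CPM in WT control and 99.6, 75.5, 8.75 and 60.5 CPM in *Mtmr2* KO. The groups did not overlap, and 4503 was far below the rest. The log2 fold change was -1.65 ± 0.60 (edgeR adjusted p = 0.193).

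The 2 abundant desaturases parted. *Scd1* read 4231, 7240.2, 3659 and 3155 CPM in WT control against 2664, 773, 763 and 1353 CPM in *Mtmr2* KO. The groups did not overlap, and the log2 fold change was -1.72 ± 0.43 (edgeR adjusted p = 0.096). *Scd2* read 4903, 3931, 4389.7 and 3952 CPM in WT control and 5199, 1673, 3025 and 4058 CPM in *Mtmr2* KO. Here 4501 was the highest of the 8 libraries and 4502 the lowest. The log2 fold change of *Scd2* was -0.30 ± 0.30 (95% interval -0.94 to 0.34, edgeR adjusted p = 0.634), and without 4502 and 4503 it was 0.11.

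**Figure D2:**
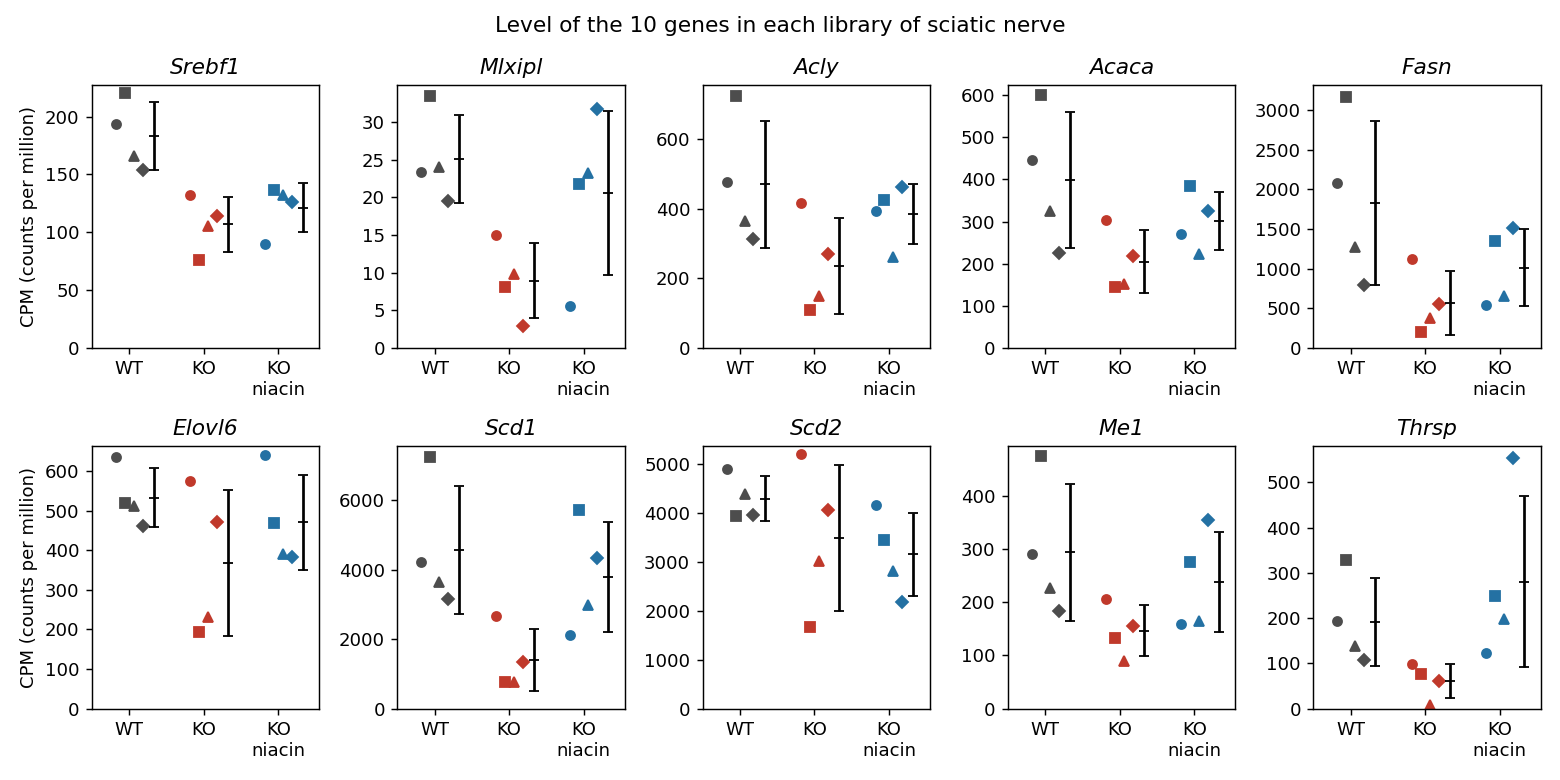
CPM of the 10 members in each library (vertical axes, linear from 0), by group, with 4 symbols for the 4 libraries of a group in label order and the mean ± SD beside them. For *Srebf1*, *Mlxipl*, *Scd1* and *Thrsp* every KO symbol lies below every WT symbol, and for *Scd2* the KO symbols span 1673 to 5199 CPM.

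The ratio of *Scd1* to *Scd2* in the same library, per exon length, does not depend on library scaling. It was 0.964, 2.06, 0.931 and 0.892 in WT control, 0.572, 0.516, 0.282 and 0.372 in *Mtmr2* KO, and 0.568, 1.85, 1.18 and 2.22 in *Mtmr2* KO niacin. All 4 *Mtmr2* KO ratios lay below all 4 WT control ratios. Library 4505 alone of the niacin libraries fell inside the *Mtmr2* KO range. On the log2 scale WT control had a mean of 0.18 ± 0.58, *Mtmr2* KO of -1.25 ± 0.47 and niacin of 0.37 ± 0.88 (SD, n = 4). *Mtmr2* KO differed from WT control by -1.43 (two-sided exact permutation test over 70 splits, p = 0.0286, the smallest they can give; adjusted over 3 comparisons p = 0.0857). Niacin differed from *Mtmr2* KO by 1.62 (exact permutation p = 0.0571, adjusted p = 0.0857) and from WT control by 0.19 (exact permutation p = 0.714, adjusted p = 0.714). With adjustment over 3 comparisons, a single comparison at that limit cannot go below 0.0857. Between the transcripts of the 2 genes few 50-base words are shared, 4.56% of those of *Scd1* being found in other genes, mainly *Scd2*.

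**Figure D3:**
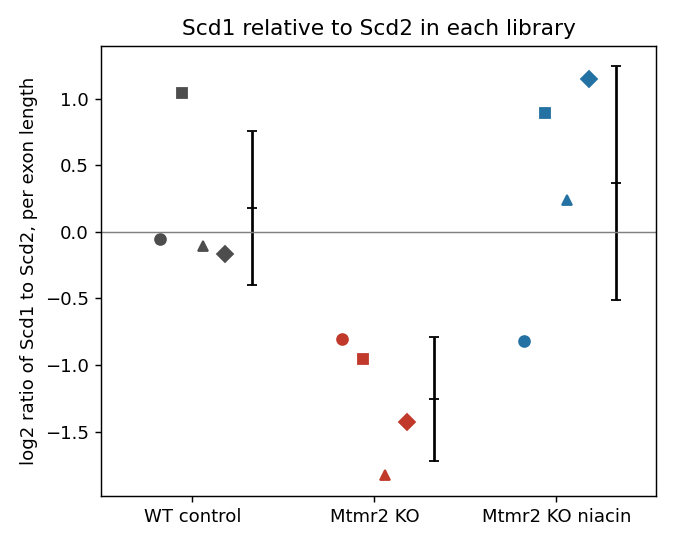
Log2 ratio of *Scd1* to *Scd2* per exon length in each library (vertical axis), by group, with mean ± SD. The 4 *Mtmr2* KO libraries lie between -1.83 and -0.81, below all WT control libraries, and 3 of 4 niacin libraries lie above 0.

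The second comparison asked how the members stood after niacin. It shares the *Mtmr2* KO libraries with the first, so a low *Mtmr2* KO value enters both and the 2 sets of differences are not independent. The mean was higher in niacin than in *Mtmr2* KO for 9 of 10 members, with a median log2 fold change of 0.71 against -0.04 over all genes tested. The median was 0.54 without 4503, 0.27 with limma-voom and 0.23 without 4502 and 4503, when 3 of 10 members had a lower mean after niacin. No member passed the adjusted threshold in edgeR, where 1.43% of genes did. At an unadjusted p under 0.05 there were 3 (*Mlxipl*, *Scd1* and *Thrsp*), against 20.1% of genes. *Thrsp* alone did not overlap, 1 of 10 against 7.01% of genes. DESeq2 called 1 member, *Thrsp*, beside 6.22% of genes, and limma-voom with sample quality weights called the same gene, beside 11.6%. DESeq2 on the 2 groups alone called *Scd1* in its place, beside 2.56% of genes.

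*Thrsp* read 123, 249, 198 and 554 CPM in niacin libraries 4505 to 4508, each above the 4 *Mtmr2* KO values given before. The fold was 4.60 (log2 fold change 2.20 ± 0.61, edgeR adjusted p = 0.086, DESeq2 adjusted p = 0.028). *Scd1* read 2112, 5727, 2972 and 4334 CPM, of which only 4505 fell below the highest *Mtmr2* KO library. Its log2 fold change was 1.45 ± 0.43 (edgeR adjusted p = 0.098). *Mlxipl* read 5.53, 21.8, 23.3 and 31.7 CPM, again with 4505 apart and low, and its log2 fold change was 1.20 ± 0.47 (edgeR adjusted p = 0.179).

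*Fasn* read 538, 1352, 654 and 1508 CPM after niacin, with a log2 fold change of 0.84 ± 0.52 over *Mtmr2* KO (edgeR adjusted p = 0.384). *Acly* (393, 424, 263 and 463 CPM), *Acaca* (272, 385, 223 and 324 CPM) and *Me1* (159, 276, 164 and 354 CPM) differed from *Mtmr2* KO by 0.71 ± 0.37, 0.56 ± 0.30 and 0.70 ± 0.34 on the log2 scale. Each of these overlapped *Mtmr2* KO, mainly through 4501. *Elovl6* read 642, 468, 391.9 and 383 CPM and differed by 0.36 ± 0.30. The factor *Srebf1* differed least among the members with a higher mean: it read 89.7, 137, 132 and 126 CPM, a log2 fold change of 0.18 ± 0.19 (95% interval -0.22 to 0.59, edgeR adjusted p = 0.611). *Scd2* read 4156, 3452, 2814 and 2182 CPM and was the only member with a lower mean, at -0.15 ± 0.30 (95% interval -0.79 to 0.50, edgeR adjusted p = 0.815). Leaving out both muscle-bearing libraries 4506 and 4507 left the *Thrsp* log2 fold change at 2.44 and that of *Scd1* at 1.19, with no member called, and brought *Srebf1* to -0.00098.

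Set against WT control, niacin nerves had a median log2 difference of -0.29 over the members, against 0.02 over all genes tested. This median moved with single libraries, to -0.13 without WT control library 4498 and to -0.46 without 4500 or without niacin library 4506. It was -0.45 with limma-voom and -0.45 without both muscle-bearing libraries, where no member was called. With edgeR no member and no gene at all passed the adjusted threshold (0%), although 24.7% of genes had an unadjusted p under 0.05. Only *Srebf1* among the members did, and only *Srebf1* was without overlap, all 4 niacin libraries lying below all 4 WT control libraries. Since 31.4% of all genes did not overlap between these groups, 1 of 10 members was fewer than the share of genes. Its fold was 0.662 (log2 fold change -0.60 ± 0.19, edgeR adjusted p = 0.113). DESeq2 on 12 libraries gave it an adjusted p of 0.0428 and called no other member, with 7% of genes called. Limma-voom with quality weights called *Srebf1*, *Fasn* and *Scd2*, with 42.4% of genes called. *Scd1* (-0.27 ± 0.42), *Me1* (-0.30 ± 0.33), *Acly* (-0.29 ± 0.37) and *Mlxipl* (-0.28 ± 0.46) had log2 differences from WT control smaller than their standard errors. *Thrsp* had a higher mean than WT control, by 0.55 ± 0.59, and without library 4508 the difference was -0.019.

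**Figure D4:**
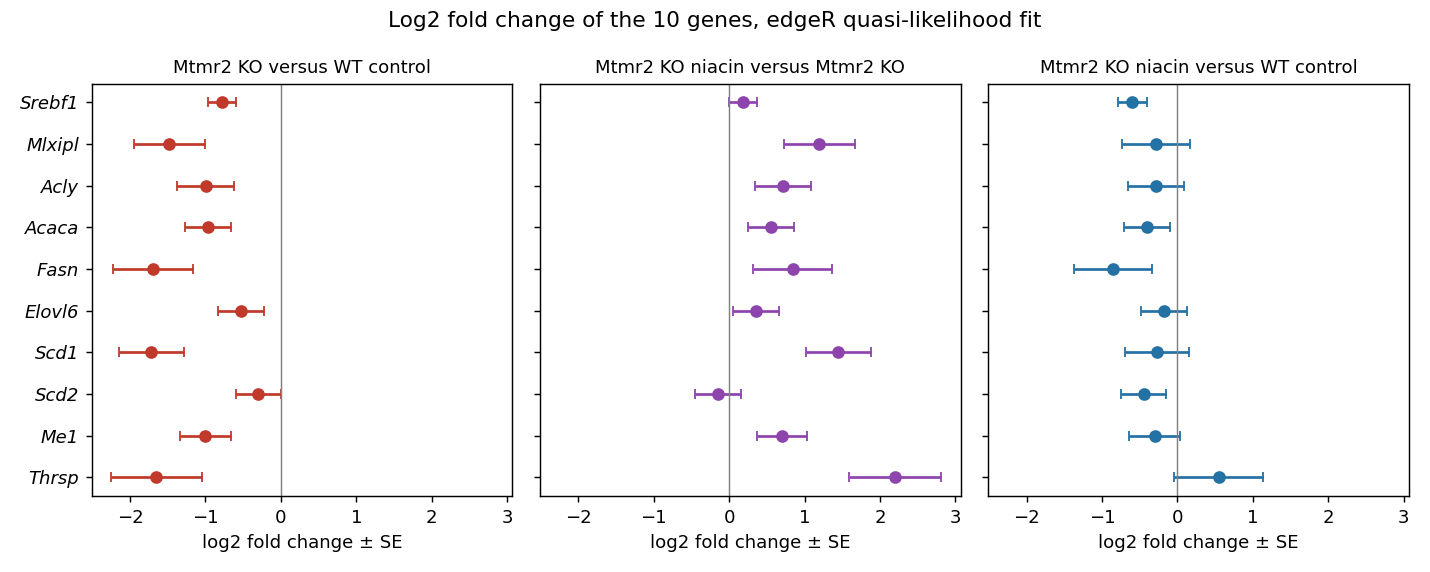
Log2 fold change ± SE (horizontal axis) of the 10 members in the 3 comparisons, from the edgeR fit over 12 libraries. All 10 points lie left of 0 for *Mtmr2* KO versus WT control and 9 of 10 right of 0 for niacin versus *Mtmr2* KO, with *Scd2* nearest to 0 in both and *Srebf1* next to it in the second.

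The libraries that were low were low across most members. The median of the 10 members' log2 deviations from the WT control mean was -0.44 in 4501, -1.41 in 4502, -1.45 in 4503 and -0.79 in 4504. In niacin it ran from -0.65 in 4505 to -0.05 in 4508, and in WT control from -0.48 in 4500 to 0.69 in 4498. The *Mtmr2* KO library 4501 was thus above the WT control library 4500 on this measure. Leaving out 4501 made edgeR call 3 members lower in *Mtmr2* KO (*Srebf1*, *Fasn* and *Scd1*, beside 2.6% of genes), while leaving out 4502 and 4503 together left none called and a median of -0.65.

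**Figure D5:**
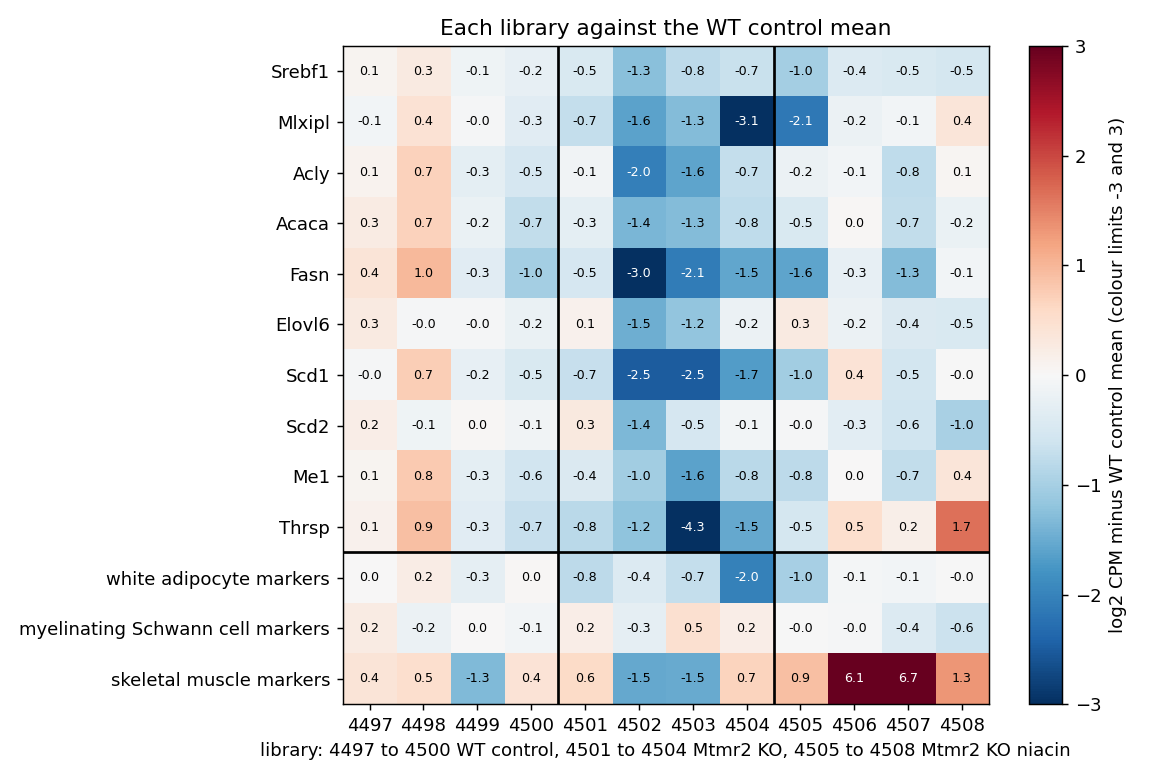
Log2 CPM of each library minus the WT control mean, for the 10 members (rows above the line) and for the mean of 3 marker lists (rows below it), with blue for lower and red for higher. *Mtmr2* KO libraries 4502 and 4503 are the bluest for most enzymes, while 4504 is the lowest for the white adipocyte markers and *Mlxipl*, and 4506 and 4507 are high for muscle.

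White adipocyte markers were lower in *Mtmr2* KO by their mean log2 level. All 10 markers of that list were detected and tested. The mean of their log2 CPM was 7.66 to 8.14 in WT control and 5.89 to 7.52 in *Mtmr2* KO, without overlap, and 6.92 to 7.91 with niacin. Their summed level was 3316 to 4218 CPM in WT control and ran from 978 to 5012 in *Mtmr2* KO, and from 2414 to 4915 with niacin, so the sums, carried by the most abundant markers, overlapped. *Plin1*, which coats lipid droplets, and *Lep*, which encodes leptin, were called lower in *Mtmr2* KO (log2 fold change -1.84 and -2.03, edgeR adjusted p = 0.045 and 0.036), and the other 8 were not called. The 3 most abundant, *Cfd*, *Fabp4* and *Pnpla2*, had log2 fold changes of -0.48, -0.29 and -0.38. *Plin4* went the other way, at 0.60. It read 1183 CPM in 4503, against 241 to 322 CPM in WT control, and lay below that range in 4501, 4502 and 4504. Library 4502, with the lowest *Fasn* of all 12 libraries, had the highest adipocyte sum of all 12 but a mean log2 level of 7.52, below every WT control library. Library 4504 was lowest on both measures, with *Fasn* at 549.7 CPM. With the mean of these markers as a covariate the 10 members had lower means in *Mtmr2* KO, with a median of -1.01. At an unadjusted p under 0.05 there were 2 in place of 8, against 23.5% of genes. Since the covariate did not overlap between WT control and *Mtmr2* KO, this fit cannot tell the markers from genotype. In that fit *Srebf1* was at -0.71, *Fasn* at -1.32 and *Scd1* at -1.39, while *Mlxipl* went from -1.48 to -0.12.

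Brown adipocyte markers, of which 4 of 5 were tested, were scarce. Their sum was 12.7 to 30.1 CPM in WT control, from 9.29 to 17.1 in *Mtmr2* KO and from 13.03 to 25.6 with niacin. *Ucp1*, the uncoupling protein that defines these cells, read 1.67, 4.997, 0.508 and 0.171 CPM in WT control and at most 0.209 CPM in *Mtmr2* KO, which differed by -4.06 on the log2 scale (edgeR adjusted p = 0.103). *Cidea* was at -2.34 (edgeR adjusted p = 0.195), and no marker of the list was called. *Cox8b* and *Ppara*, the more abundant markers, were at -0.78 and -0.02. After niacin *Cox8b* read 6.22, 14.3, 19.7 and 17.4 CPM and was the largest part of each niacin sum. Against *Mtmr2* KO it was then at 1.72 (edgeR adjusted p = 0.100) and *Ppara* at -0.36. *Ucp1* stayed at or below 0.472 CPM with niacin, at -3.62 against WT control (edgeR adjusted p = 0.101).

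Myelinating Schwann cell markers overlapped in sum between WT control and *Mtmr2* KO. Their sum was 91627 to 117029 CPM in WT control and ran from 88940 to 121068 in *Mtmr2* KO, and from 63817 to 104302 with niacin, and none of the 10 was called in any comparison. Macrophage markers summed to 259 to 292 CPM in WT control, from 221 to 430 in *Mtmr2* KO, and from 306 to 476 with niacin, with the highest values in 4502 and 4505, the libraries in which *Srebf1* was lowest in each KO group. Neutrophil markers were near 0 in WT control (at most 0.854 CPM in sum) and reached 13.9 and 13.6 CPM in 4501 and 4502. The part of these cells in the results was not tested.

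Within groups the members fell into sets that varied together. Deviations of log2 CPM from the group mean were compared over the 12 libraries, as a description, since the libraries share a genotype and treatment by group and each pair comes from the same RNA. *Acly*, *Acaca*, *Fasn*, *Scd1* and *Me1*, a set formed after the values were seen, had Pearson r from 0.76 (*Acly* with *Me1*, Spearman rho 0.78) to 0.92 (*Acaca* with *Fasn*, rho 0.90). *Srebf1* was nearest to *Fasn* (r = 0.88, rho 0.83) and *Scd1* (r = 0.83, rho 0.85), and both held without the 2 libraries farthest from the median of *Srebf1* (r = 0.85 and 0.81). *Thrsp* was nearest to *Me1* (r = 0.85, rho 0.90, and 0.82 without the 2 farthest). *Elovl6* was nearest to *Scd2* (r = 0.92, rho 0.90, and 0.82 without the 2 farthest) and next to *Acly* (r = 0.78, rho 0.70, but 0.51 without the 2 farthest), while *Scd2* with *Scd1* gave r = 0.39 and rho 0.17.

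The members also differed in the cell markers they varied with. *Scd2* went with the mean of the myelinating Schwann cell markers (r = 0.73, rho 0.76, and 0.72 without the 2 farthest libraries). It went as closely with that of the non-myelinating Schwann cell markers (r = 0.73, rho 0.82, and 0.84 without the 2 farthest). With the mean of the white adipocyte markers r was -0.58 (rho -0.71). *Fasn* and *Scd1* had r of 0.11 and -0.05 with the myelinating and 0.30 and 0.32 with the non-myelinating Schwann cell markers. With the white adipocyte markers they had 0.06 and 0.13. With the mean of the brown adipocyte markers, however, r was 0.78 for both (rho 0.69 and 0.73, and r of 0.84 and 0.55 without the 2 farthest libraries). It was 0.89 for *Me1* (rho 0.83), 0.83 for *Thrsp* (rho 0.88) and 0.81 for *Acaca* (rho 0.64), and 0.82, 0.84 and 0.66 without the 2 farthest. The brown adipocyte mean rests partly on values near 0, with *Ucp1* at most 4.997 CPM and *Cidea* at most 6.65 CPM in any library. The cell source of the members' RNA was not tested. *Mlxipl* went with the white adipocyte markers (r = 0.85, rho 0.66), but this rested on 2 libraries, since r was 0.36 without them. *Srebf1* went against the macrophage markers (r = -0.88, rho -0.85, and -0.71 without the 2 farthest).

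Of all genes tested, the 4 whose deviations were most like those of *Scd2* were *Fads1* (r = 0.99, rho 0.99), *Ss18*, *Ucp2* and *Alad* (each r = 0.99, with rho from 0.96 to 0.97). *Fads1* encodes a desaturase of polyunsaturated fatty acids. The 5 nearest to *Srebf1* were *Ccdc157* (r = 0.96, rho 0.95), *Magi1* (0.96, 0.89), *Tmem135* (0.95, 0.94), *Gm24480* (0.94, 0.80) and *Ampd2* (0.94, 0.98). *Gm24480* was near the limit of detection at a mean of 0.420 CPM. None of these 9 neighbours was a member, and each r stayed at 0.87 or above without the 2 libraries farthest from the median.

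The wider pathway was followed through 55 further genes in 6 groups by role, of which 52 passed the filter. None was called in any of the comparisons by edgeR. In *Mtmr2* KO versus WT control their median log2 fold change was -0.16, and 11 had an unadjusted p under 0.05, 2 higher and 9 lower, against 17.2% of genes. In niacin versus *Mtmr2* KO the median was 0.06 with 12 higher and 10 lower (20.1% of genes), and in niacin versus WT control -0.15 with 4 higher and 15 lower (24.7%). *Me3*, a mitochondrial malic enzyme chosen after its values were seen, had the smallest adjusted p of the list in the first comparison (0.075) and went the other way from *Me1*: it read 10.1 to 11.1 CPM in WT control and 13.3 to 26.4 CPM in *Mtmr2* KO.

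Regulators of the pathway had no common direction in *Mtmr2* KO, with a median of 0.00 over 16 genes. They included *Mlx*, *Usf1* and *Prkaa1* beside genes of SREBP control. *Srebf2*, the factor of cholesterol synthesis, was at -0.28 ± 0.23 and *Insig1*, which holds SREBP in the endoplasmic reticulum, at -0.26 ± 0.24. With niacin most regulators had lower means, though none was called. Against *Mtmr2* KO the median was -0.30, with 12 of 16 lower, and 8 lower and 1 higher had an unadjusted p under 0.05. Against WT control the median was -0.31, 9 of 16 had an unadjusted p under 0.05, all lower (24.7% of genes), and 9 were lower without overlap and 2 higher (31.4% of genes). *Srebf2* was then at -0.60 ± 0.23 and *Scap*, the escort of SREBP, chosen after its values were seen, at -0.79 ± 0.20 (edgeR adjusted p = 0.155 and 0.085), while *Insig1* was at 0.25 ± 0.24. Suppliers of carbon and NADPH had a median of -0.26 over 9 genes. In that group *Slc25a1*, which carries citrate out of the mitochondrion, was at -0.48 and *Mdh1*, a malate dehydrogenase, at 0.02. In the group of malonyl-CoA and mitochondrial synthesis, 6 of 7 genes were tested with a median of -0.31. *Acacb*, the carboxylase isoform that controls fatty acid oxidation, read 52.7 to 118 CPM in WT control and 20.4 to 55.7 CPM in *Mtmr2* KO, at -1.20 (edgeR adjusted p = 0.128), and *Mecr* was at -0.61 (edgeR adjusted p = 0.105).

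Elongation genes, 10 of 12 tested, had a median of -0.09. *Elovl1*, which makes very long chains for sphingolipids, read 424 to 474 CPM in WT control and 496 to 769 CPM in *Mtmr2* KO, all above the controls, a log2 fold change of 0.45 (edgeR adjusted p = 0.175) and opposite in sign to that of *Elovl6*. *Tecr*, the last enzyme of the elongation cycle, was at 0.28. The other desaturases, 6 genes, had a median of -0.23, with *Fads1* at -0.12 and *Fads2* at -0.35. *Scd3* and *Scd4*, the remaining stearoyl-CoA desaturases, were at most 1.797 CPM in any library. Activation genes, 5 acyl-CoA synthetases, had a median of -0.30, with *Acsl1* at -0.80 (KO libraries all below WT control, edgeR adjusted p = 0.151) and *Acsl3* at -0.30. *Acsl3* read 126 to 195 CPM after niacin, above all *Mtmr2* KO and WT control libraries, at 0.79 over *Mtmr2* KO (edgeR adjusted p = 0.156).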

How the data were processed

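RNA-seq of polyA RNA from 12 sciatic nerves was analysed. The authors mapped reads to GRCm38 (mm10) with STAR and deposited raw counts per Ensembl gene, whole numbers without normalization; the submitters' processing notes also name CASAVA 1.9. Neither labels nor methods name the counting program, the annotation release or the strand setting. The authors' DESeq2 tables hold their own comparisons; only the gene symbols in them were used. All 12 count columns matched a sample by the number in its label.

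The counts were fitted with edgeR 4.0.16 in R 4.3.3, with filterByExpr by group, TMM scaling, and 1 quasi-likelihood fit over 12 libraries without covariates, with two-sided tests and Benjamini-Hochberg adjustment over all 17257 genes tested. The threshold was an adjusted p under 0.05. CPM used the TMM factors, and log2 CPM a prior count of 2. An SE is the log2 fold change divided by the square root of F. Groups were called separate where no libraries overlapped. Exon lengths and positions came from GENCODE M21 (GRCm38), promoters from RefSeq (GRCm38.p6). The fit was tested on simulated data.

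Members, pathway list and marker lists were chosen with earlier results of these data known. Named genes were the members, *Mtmr2*, the 2 most abundant pathway genes of each role, the 3 most abundant markers of a list where a result turned on it, and the 5 genes nearest to *Srebf1* and *Scd2*, of which 1 is not reported here; others were chosen after their values were seen. For 1 pathway gene an older symbol was matched through RefSeq. Mice were separate animals. Alternatives were DESeq2 1.42.0 on 12 libraries or 2 groups, limma 3.58.1 voom with quality weights, DESeq2 size factors, edgeR on 2 groups, 2 other filters (1 count in total, 10 counts in every library), *Xist* or adipocyte markers as covariate, and each library left out.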

Additional observations from a re-analysis of the deposited data

Results flagged for a closer look

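In WT control library 4498 the log2 ratio of *Scd1* to *Scd2* was 1.04, far from the other 3 WT control libraries, which lay between -0.17 and -0.05. It is listed because its gap to the nearest library, over the range of the group, passed the critical value of Dixon's test for 4 samples (0.829). It was the only value so marked among 33 groups of 4 libraries examined (10 members and the ratio in 3 groups), and chance alone marks about 1 in 20. Without 4498 the *Mtmr2* KO libraries differed from WT control by -1.15 in place of -1.43. The same library had the highest WT control values of 8 of the 10 members, the exceptions being *Elovl6* and *Scd2*.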

How the results depend on the processing

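The number of members called, 0 in each comparison by edgeR, rose under several alternatives. In *Mtmr2* KO versus WT control, DESeq2 called 4 on 12 libraries (3.71% of all genes) and 3 on the 2 groups (2.39%). The 3 were *Srebf1*, *Mlxipl* and *Scd1*, so *Acaca* and *Me1* dropped out and *Mlxipl* came in. The number was 4 with no filter except 1 count in total (1.01%). It was 0 to 3 with 1 library left out, 3 without 4501 (2.6%). In niacin versus *Mtmr2* KO, DESeq2 called *Thrsp* alone on 12 libraries (6.22% of all genes) and *Scd1* alone on the 2 groups (2.56%). The number was 1 with limma-voom (11.6%) and 2 with no filter (1.69%). It was 0 to 1 with 1 library left out, 1 without 4502 (23.6%). In niacin versus WT control, DESeq2 called 1 on 12 libraries (7% of all genes) and 2 on the 2 groups (36.9%). The number was 3 with limma-voom (42.4%) and 1 with edgeR on the 2 groups (33.9%). It was 0 to 1 with 1 library left out, 1 without 4502 (21.6%). Except with DESeq2 on 12 libraries, the members called here were fewer than the share of genes. Direction turned for *Elovl6* in niacin versus *Mtmr2* KO with limma-voom (-0.023) and for *Scd2* there with the adipocyte covariate (0.19) or without 4501 (0.11, from -0.39 to 0.11 with each library left out in turn). In niacin versus WT control it turned for *Scd1* (0.037, range -0.57 to 0.037) and *Me1* (0.026, range -0.56 to 0.026) without 4498, *Mlxipl* (0.024, range -0.57 to 0.024) without 4505 and *Thrsp* (-0.019, range -0.019 to 0.93) without 4508. Chosen after seeing the data, leaving out both 4502 and 4503 turned *Scd2* versus WT control (0.11) and *Srebf1* (-0.029) and *Elovl6* (-0.16) in niacin versus *Mtmr2* KO, and leaving out both 4506 and 4507 turned *Srebf1* there (-0.00098). With 1 library left out, the log2 difference of the ratio of *Scd1* to *Scd2* was -1.58 to -1.15 in *Mtmr2* KO versus WT control. It was 1.36 to 2.01 in niacin versus *Mtmr2* KO and -0.076 (without 4508) to 0.58 in niacin versus WT control. For niacin versus *Mtmr2* KO the exact permutation test gave an adjusted p of 0.0429 without 4505, the only niacin library inside the KO range. That test had fewer than 70 splits, and its unadjusted p was the smallest they can give. The cause of these shifts was not tested. Of the other values for single members, 631 kept direction and side of the threshold, and 28 passed the threshold under an alternative with direction kept. No paired analysis was possible because the groups share no replicate numbers. With 4 libraries a group and the spread shown, differences of the size seen for most members could not be told from 0 at the adjusted threshold.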
